A study of Mus musculus with 24 samples.

Results

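Haem synthesis and iron uptake in red cell precursors were described through 9 genes: Alas2, Alad, Uros, Urod, Cpox, Ppox, Fech, Tfrc and Slc25a37. They were chosen by symbol, as 9 of the 55421 gene rows in the embryo table and 9 of 55421 in the yolk sac table. All 9 passed the filter on low counts in both tissues. The libraries were polyadenylated RNA from whole mouse embryos and yolk sacs of the C57BL/6 strain at embryonic day 9.5. Mice of one line carried a null allele of Setd2, which encodes the methyltransferase that trimethylates lysine 36 of histone H3, and mice of the other carried a catalytic dead (CD) allele. Each line gave homozygous (HO), heterozygous (HE) and wild-type (WT) libraries, 2 per group and tissue, so 24 in 12 groups. The labels name no Cre driver and no other allele. They do not say that the libraries of a group came from separate animals, and each p-value covers the spread among the sequenced samples. By the sex transcripts Xist and Ddx3y, the libraries differed in sex in null HO and CD HE embryos and in null HE and null HO yolk sacs. In those groups they were therefore not repeats of the same animal. In the other groups the spread may be technical.

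Haem is made from glycine and succinyl-CoA in a chain of enzymatic steps that starts in the mitochondrion, passes through the cytosol and ends in the mitochondrion with the insertion of iron into protoporphyrin. Alas2 is the erythroid enzyme of the first, rate-limiting step. Alad, Uros and Urod encode the cytosolic enzymes that build and trim the porphyrin ring, and Cpox, Ppox and Fech encode the mitochondrial enzymes that finish it. Tfrc is the transferrin receptor, through which iron enters the cell, and Slc25a37 (mitoferrin 1) carries iron across the inner mitochondrial membrane. At this stage of mouse development the circulating red cells are primitive erythroblasts that arise in the yolk sac.

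The RNAs of several iron genes carry iron-responsive elements, hairpins with a CAGTGN loop that iron regulatory proteins bind when iron is scarce. Binding in the 3′ untranslated region stabilises Tfrc RNA, and binding in the 5′ untranslated region blocks translation of Alas2 and of the ferritin chain Fth1. A search of the GENCODE M21 transcripts took a loop of 6 bases, CAGTGN with a last base other than G, closed by 5 base pairs (G with T allowed) and preceded on the 5′ side by an unpaired C. It matched the 3′ untranslated regions of 99 of 21877 genes (0.453%), and Tfrc, with 4 matches, was the only gene with that many. It matched the 5′ untranslated regions of 22 genes (0.101%), among them Alas2, and no other member matched in either region. The Tfrc, Alas2 and Fth1 elements are printed because they are the part of these RNAs that reads iron, as 30 bases of the sense strand with the loop in capitals. The Tfrc loops start at bases 898, 1277, 1342 and 1389 of the 2461-base 3′ untranslated region of Tfrc-201, and the Alas2 loop starts at base 96 of the 126-base 5′ untranslated region of Alas2-201.
Tfrc element 1: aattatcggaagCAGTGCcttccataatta
Tfrc element 2: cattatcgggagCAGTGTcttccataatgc
Tfrc element 3: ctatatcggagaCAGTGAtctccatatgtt
Tfrc element 4: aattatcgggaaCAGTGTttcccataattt
Alas2 element: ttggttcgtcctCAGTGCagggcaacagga
Fth1 element: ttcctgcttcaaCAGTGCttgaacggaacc
Tfrc elements 2 and 4 share the loop CAGTGT but differ in the stem, and the Alas2 and Fth1 elements share the loop CAGTGC with Tfrc element 1. A match is a description of these letters, and binding was not measured.

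Erythroid promoters often hold GATA and CACCC motifs. Of the RefSeq promoter windows (GRCm38.p6, 250 bases before to 50 bases after a start), 10 belonged to 7 of the 9 members. Searched on both strands, AGATAA was present in a window of Alas2 and of Cpox (11.2% of all 32851 windows), TGATAA in one of Cpox and of Uros (9.05%), CACACCC in one of Cpox (7.95%) and CCCACCC in windows of Alas2 and Tfrc (17.5%). These motifs are common among all promoters, and no chromatin data bear on them here.

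The depth per library was 16400137 to 22113787 counts in yolk sacs and 23414255 to 27674831 in embryos. Read counts scaled to the effective size of each library gave the levels (CPM), and changes are log2 fold changes ± standard error (SE) from edgeR's quasi-likelihood test, with Benjamini-Hochberg adjustment over all genes tested (edgeR adjusted p). Setd2 followed the labels in null embryos, with 98.6 ± 7.62 CPM in HO, 163 ± 8.26 in HE and 231 ± 2.12 in WT (SD, n = 2 each). In null yolk sacs it was 77.2 ± 2.38 in HO and 117 ± 3.99 in HE, and the libraries labelled WT, at 108 ± 8.11, lay below HE and against their label. Yolk sacs labelled WT in the CD line had 184 ± 8.58 CPM. Whether the null pair is WT was not tested, so null HO and HE yolk sacs set against it may not be set against WT. In the CD line Setd2 RNA was close to WT in both tissues, and its level does not check those labels. By Xist and the Y-linked Ddx3y, CD HO embryos were female and CD WT embryos male, and the CD yolk sacs had the reverse arrangement, so HO and sex cannot be told apart in that line. In the null line WT embryos were female, HE embryos male and HO embryos 1 of each, so HE and sex cannot be told apart there, and the yolk sacs labelled WT were female with 1 male each in HE and HO. The yolk sac CD HE replicate 2 held both Xist (896 CPM) and Ddx3y (88.3 CPM).

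Alas2, Ppox, Cpox and Slc25a37 overlap exons of other genes, and the sources used here do not say whether reads were counted by strand. Alas2 (X:150547375-150570638 in mm10, plus strand) shares 311 exonic bases with Apex2 and 61 with Mir3620. Ppox shares 791 with B4galt3, Cpox shares 204 with Gpr15, and Slc25a37 shares 381 with Gm31748 and 92 with Gm27223. Values of these 4 members are uncertain to that extent.

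The levels of the members in WT libraries were compared first between the tissues, a question of where these transcripts are abundant. The WT yolk sac libraries include the pair of the null line that are labelled WT but go against that label by Setd2. All 9 members were higher in yolk sacs than in embryos (9 of 9 called higher; of all 20543 genes tested, 34.2% were called higher and 71.7% in either direction). Alas2 differed most among the members, by a log2 fold change of 3.08 ± 0.46 (edgeR adjusted p = 6.38e-06). Fech followed at 2.77 ± 0.16 (edgeR adjusted p = 1.19e-11), Cpox at 2.70 ± 0.19 (edgeR adjusted p = 1.42e-10) and Slc25a37 at 2.56 ± 0.28 (edgeR adjusted p = 1.38e-07). Uros, Alad, Ppox and Urod were higher by 1.28 to 2.05 on the log2 scale, and Tfrc differed least, by 0.98 ± 0.25 (edgeR adjusted p = 0.00153). All 19 of 19 tested erythroid markers (globins, membrane skeleton and red cell transcription factors) were also higher in yolk sacs, with a median log2 fold change of 2.97, and so were 12 of 12 visceral endoderm markers, with a median of 7.88. In bulk tissue, more cells of a type and more RNA per cell cannot be told apart. Nor can a tissue be told apart from the preparation of its libraries.

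FPKM values, which are per length of all annotated exons of a gene together, put the members in order within a tissue. That length was 13838 bases for Fech and 3576 for Uros, so the order between genes depends on it too. In the 4 WT yolk sac libraries Slc25a37 stood at 123 ± 59.4 FPKM (SD, n = 4), Tfrc at 87.8 ± 34.7, Alas2 at 71.1 ± 35.1 and Cpox at 58.9 ± 19.3. Alad (44.6 ± 13.1), Urod (32.3 ± 10.2), Fech (20.1 ± 5.40), Uros (14.6 ± 5.07) and Ppox (13.5 ± 3.30) followed, and the ranges of every pair of neighbours overlapped. In the 4 WT embryo libraries Tfrc was highest, at 55.6 ± 8.90 FPKM, followed by Slc25a37 (25.8 ± 4.36), and their ranges did not overlap with each other or with the next gene. Alad (18.9 ± 1.28) and Urod (16.5 ± 1.60) overlapped, as did Cpox (11.1 ± 0.883) with Alas2 (10.503 ± 3.55) and Alas2 with Ppox (6.57 ± 0.723). Uros (4.36 ± 0.450) and Fech (3.63 ± 0.399) were lowest by this measure and overlapped. By CPM, which is not scaled to length, Fech was above Uros in null WT embryos (means of 51.9 and 15.9 CPM). The housekeeping first enzyme Alas1, outside the set, had 9.43 FPKM in WT yolk sacs and 4.15 FPKM in WT embryos. Alas2 exceeded Alas1 in both tissues, as group means over 4 libraries.

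**Figure D1:**
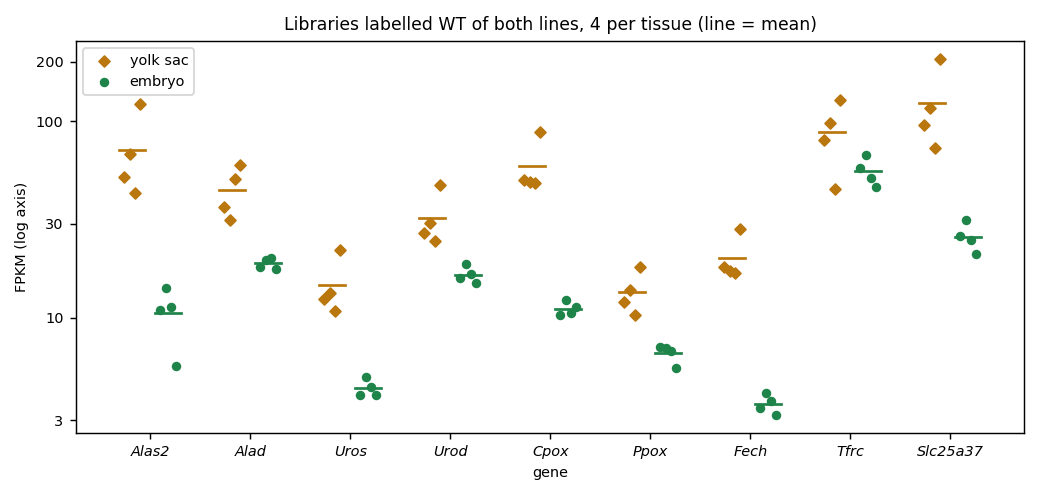
Levels of the 9 members in WT yolk sacs and WT embryos (FPKM, log axis), 4 libraries per tissue with the mean as a line; the null yolk sac libraries are those labelled WT whose Setd2 level goes against the label. Tfrc lies at 44.9 to 128 FPKM in yolk sacs and 46.3 to 67.1 in embryos and is the member whose tissues lie closest.

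In homozygous null embryos most of the pathway was low. Of the 9 members, 6 fell in HO relative to WT: Alas2, Uros, Urod, Ppox, Tfrc and Slc25a37. Of all 19215 genes tested, 32.7% were called in either direction and 16.5% lower. The median log2 fold change of the members was −0.57, against 0.0148 over all genes tested. The 3 members not called were Alad (−0.40 ± 0.17, edgeR adjusted p = 0.0868), Fech (−0.39 ± 0.14, edgeR adjusted p = 0.0525) and Cpox (−0.00 ± 0.19, edgeR adjusted p = 0.992). Both HO libraries lay below both WT libraries for 8 of the 9 members, as for 31.9% of all genes tested, and Cpox overlapped.

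Alas2, at the head of the pathway, had 15.5 and 2.14 CPM in null HO embryos, 31.1 and 33.8 CPM in HE and 26.1 and 33.5 CPM in WT. HO replicate 2 was far below every other embryo library, and HO replicate 1 lay below all null HE and WT libraries. The log2 fold change in HO against WT was −1.74 ± 0.59 (edgeR adjusted p = 0.0383). It was −0.96 and not called without HO replicate 2, and −3.80 and called without HO replicate 1.

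Among the cytosolic enzymes, Alad (4:62509169-62519918, minus strand), which joins aminolaevulinate into porphobilinogen, had 32.5 and 20.5 CPM in HO, 38.1 and 37.0 CPM in HE and 33.5 and 36.4 CPM in WT. HO replicate 1 stood just under the lower WT library. Uros (7:133686243-133710072, minus strand), which closes the ring, had 11.5 and 9.39 CPM in HO, 16.2 and 17.6 CPM in HE and 14.3 and 17.5 CPM in WT, a log2 fold change of −0.61 ± 0.14 in HO against WT (edgeR adjusted p = 0.00535). Both HO libraries were below all others of the line. Urod (4:116989965-116994413, minus strand), which removes carboxyl groups from the ring, had 32.7 and 26.98 CPM in HO, 46.9 and 47.4 CPM in HE and 40.8 and 47.7 CPM in WT. Its HO libraries too lay below every HE and WT library, with a log2 fold change of −0.57 ± 0.11 (edgeR adjusted p = 0.00255).

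The mitochondrial enzymes did not share one pattern. Cpox (16:58670292-58717636, plus strand), which oxidises coproporphyrinogen, had 88.2 and 59.6 CPM in HO, 83.3 and 90.5 CPM in HE and 68.0 and 80.4 CPM in WT. One HO library lay above both WT libraries and the other below both. Ppox (1:171275990-171281186, minus strand), which makes protoporphyrin, had 23.8 and 17.8 CPM in HO, 32.7 and 33.2 CPM in HE and 31.6 and 31.1 CPM in WT. The HO libraries were the lowest of the line, by −0.59 ± 0.13 on the log2 scale against WT (edgeR adjusted p = 0.00492). Fech (18:64452914-64490251, minus strand), which inserts the iron, had 43.7 and 35.5 CPM in HO, 58.1 and 63.2 CPM in HE and 47.5 and 56.2 CPM in WT. HO was below HE and WT in each library.

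Of the iron carriers, Tfrc (16:32608920-32632794, plus strand) had 291 and 255 CPM in HO, 347 and 355 CPM in HE and 354 and 409 CPM in WT. The HO libraries were the lowest of the line and close to each other, and the log2 fold change of −0.48 ± 0.08 had the smallest p of the 9 members (edgeR adjusted p = 0.000887). Slc25a37 (14:69241848-69285112, minus strand) had 137 and 71.7 CPM in HO, 182 and 197 CPM in HE and 156 and 187 CPM in WT. Its HO replicate 2 was the lowest of all embryo libraries, and the log2 fold change was −0.71 ± 0.24 (edgeR adjusted p = 0.0368). For Slc25a37 it was −0.34 and not called without HO replicate 2, and −1.26 and called without HO replicate 1. The calls of Slc25a37 and Alas2 were also lost without either null WT library.

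**Figure D2:**
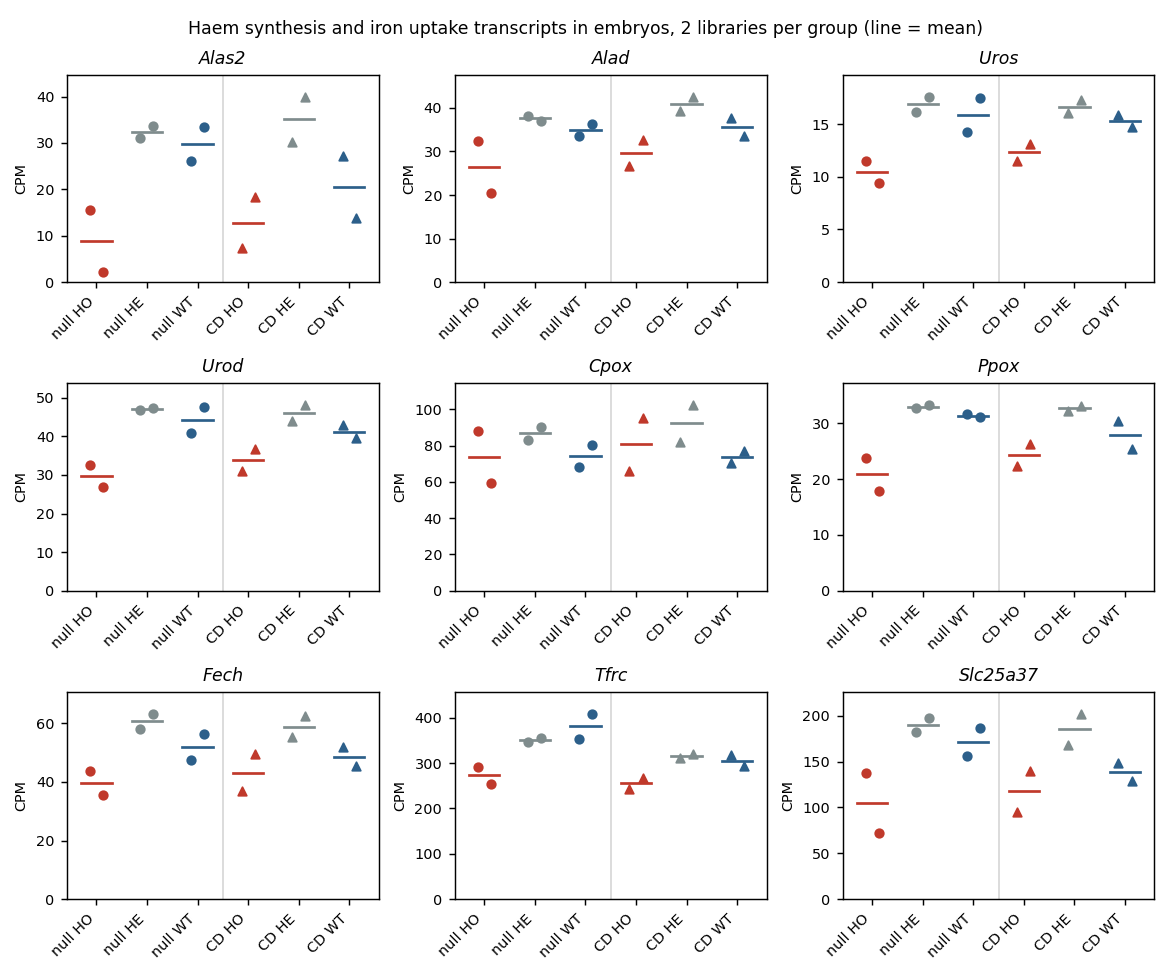
CPM of each member in the 12 embryo libraries, by line and genotype, with points for libraries and lines for means of 2. Null HO libraries lie below null WT for 8 of 9 members, as for 31.9% of all genes tested, and the exception is Cpox, with 88.2 and 59.6 CPM in HO and 68.0 and 80.4 CPM in WT.

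The size of the decrease differed among members and between the HO replicates. As a percent of the null WT mean, null HO replicates 1 and 2 held 52.0% and 7.17% of Alas2, 79.9% and 41.8% of Slc25a37, 76.2% and 66.9% of Tfrc and 119% and 80.3% of Cpox. Alad (93.0% and 58.8%), Uros (72.2% and 59.1%), Urod (73.9% and 61.0%), Ppox (75.9% and 56.9%) and Fech (84.2% and 68.4%) lay between Alas2 and Cpox. HO replicate 2 was the lower for every member, and Alas2 stood furthest apart. The ubiquitous first enzyme Alas1 held 94.0% and 92.3%. The 19 erythroid markers had a median of 44.7% and 6.40% of WT, so replicate 2 was the lower there too.

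The erythroid markers moved with these results. Their summed level was 155 to 1483 CPM in null HO embryos, 3056 to 3517 CPM in null HE and 2295 to 3366 CPM in null WT. Of the 19, 12 fell in HO against WT, where 16.5% of all genes tested were called lower, and none was at 0 in any library. Leukocyte markers summed to 4.69 to 9.49 CPM over all embryo libraries, and 7 of 10 were at 0 in at least 1 library. With the mean log2 level of the 19 markers as a term in the fit, an alternative chosen after seeing the data, 1 of 9 members was called in null HO embryos, where 14.8% of all genes were called in either direction and 7.21% higher. That member was Cpox, higher by 0.58 ± 0.15 on the log2 scale (edgeR adjusted p = 0.0212). Alas2 was then at 0.17 ± 0.18 (edgeR adjusted p = 0.583), Slc25a37 at 0.11 (edgeR adjusted p = 0.317) and Tfrc at −0.26 ± 0.08 (edgeR adjusted p = 0.0518). The term is made from transcripts of the same libraries, and whether fewer red cells or less RNA per cell moved them was not tested.

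Set against HE embryos instead, 8 of 9 members fell in null HO (30.3% of all genes called, 15.1% lower), all but Cpox at −0.23 ± 0.19 (edgeR adjusted p = 0.378). Alad at −0.50 ± 0.17 (edgeR adjusted p = 0.0377) and Fech at −0.61 ± 0.14 (edgeR adjusted p = 0.00653) joined the 6 called against WT. Both comparisons use the same HO libraries and so are not independent. HE against WT gave 0 of 9 members in the null line, where 0.0104% of all genes were called, with 0 at an unadjusted p under 0.05 in edgeR and 0 in DESeq2.

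In homozygous CD embryos 1 of 9 members was called. Tfrc had 243 and 268 CPM in CD HO embryos, 312 and 320 CPM in HE and 318 and 293 CPM in WT. Both HO libraries were below all others of the line, and the log2 fold change was −0.26 ± 0.08 (edgeR adjusted p = 0.0495), where 16.1% of all genes were called and 9.14% lower. This call lies at the threshold and was lost in 3 of the 4 fits that left out 1 CD HO or WT library, the exception being the one without WT replicate 2.

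Alas2 had 7.38 and 18.3 CPM in CD HO embryos, 30.2 and 39.97 CPM in HE and 27.1 and 13.9 CPM in WT. WT replicate 2 lay between the HO libraries, and the change of −0.69 ± 0.58 was not called (edgeR adjusted p = 0.463). Slc25a37 likewise had 95.1 and 140 CPM in HO, 169 and 202 CPM in HE and 149 and 129 CPM in WT, with overlap between HO and WT. HO lay below WT without overlap for 4 of 9 members, Alad, Uros, Urod and Tfrc, as for 28.3% of all genes tested. Uros had 11.5 and 13.2 CPM in HO, 16.03 and 17.3 CPM in HE and 15.8 and 14.7 CPM in WT. Urod had 31.1 and 36.7 CPM in HO, 43.9 and 48.0 CPM in HE and 42.9 and 39.6 CPM in WT. The log2 fold changes against WT were −0.31 for Uros (edgeR adjusted p = 0.143) and −0.29 for Urod (edgeR adjusted p = 0.108), neither called.

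Cpox was the one member with a positive value, with 65.9 and 95.4 CPM in CD HO, 82.2 and 102 CPM in HE and 70.4 and 77.2 CPM in WT (0.13 on the log2 scale, edgeR adjusted p = 0.699). Against HE, 5 of 9 members fell in CD HO (22.1% of all genes called, 11.9% lower). They were Uros (−0.43, edgeR adjusted p = 0.0369), Urod (−0.44, edgeR adjusted p = 0.0153), Ppox (−0.43, edgeR adjusted p = 0.0339), Fech (−0.45, edgeR adjusted p = 0.0384) and Tfrc (−0.31, edgeR adjusted p = 0.0191). HE and WT gave 0 of 9 in the CD line (0.0156% of all genes, 0 at an unadjusted p under 0.05, 0 in DESeq2). The erythroid markers summed to 712 to 1810 CPM in CD HO, 2941 to 4045 CPM in HE and 1339 to 2553 CPM in WT, so that the HO and WT ranges overlapped, and 0 of 19 were called in HO against WT (3 at an unadjusted p under 0.05). With their level as a term 0 of 9 members were called (16.4% of all genes; 2 members at an unadjusted p under 0.05 in edgeR), and Tfrc was at −0.17 (edgeR adjusted p = 0.0666).

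The homozygous effects of the lines were then compared directly. In embryos 0 of 9 members differed between CD and null (0.0208% of all genes called, 0 members at an unadjusted p under 0.05 in edgeR, 0 in DESeq2). The differences, CD minus null, were 1.05 ± 0.82 for Alas2, 0.39 ± 0.18 for Ppox, 0.47 ± 0.34 for Slc25a37 and 0.22 ± 0.11 for Tfrc on the log2 scale. These errors are wide enough that a missed threshold does not show equal effects. Without null HO replicate 1, Alas2, Ppox and Slc25a37 were called, all less reduced in CD. The WT embryos of the lines gave 0 of 9 members in edgeR (0.0312% of all genes, 1 at an unadjusted p under 0.05), and DESeq2 called 1, Tfrc.

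**Figure D3:**
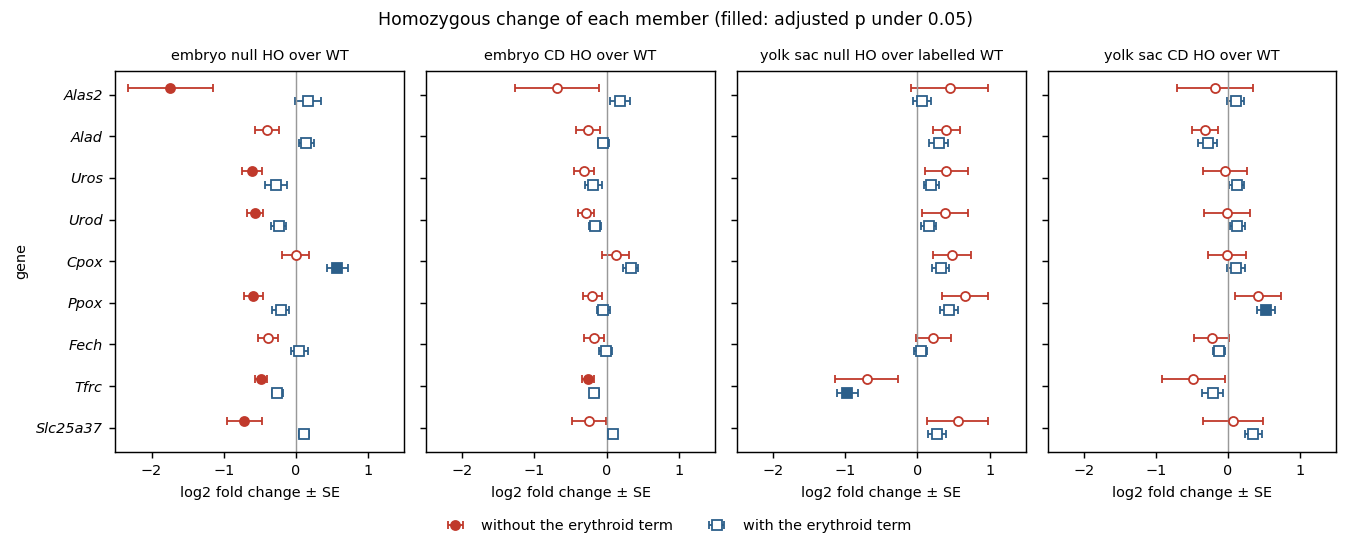
Log2 fold change ± SE of HO over WT for the 9 members in each line and tissue, without (circles) and with (squares) the erythroid marker term, filled where the edgeR adjusted p is under 0.05. In null embryos 6 circles are filled, all to the left of 0, and the filled square is Cpox at 0.58; in null yolk sacs, set against the libraries labelled WT, the filled square is Tfrc at −0.97.

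In yolk sacs no member was called in HO of either line. In null HO yolk sacs against the libraries labelled WT, 0 of 9 passed (6.27% of all 17755 genes tested were called; 0 members at an unadjusted p under 0.05 in edgeR, 0 in DESeq2). In CD HO against WT it was 0 of 9 (3.15% of all genes, 0 at an unadjusted p under 0.05, 0 in DESeq2). The yolk sac libraries were more variable, with a common biological coefficient of variation of 0.165 in yolk sacs and 0.087 in embryos.

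The members nevertheless lay in different places relative to the libraries labelled WT. In the null line 6 of 9 members had both HO libraries above both labelled WT libraries (Alad, Uros, Urod, Cpox, Ppox and Slc25a37), 1 of 9 had both below (Tfrc) and 2 overlapped (Alas2 and Fech). Of all genes tested, 29.7% lay above and 27% below in this way, and none of the 9 members was called. Alas2 had 230.5 and 160.4 CPM in null HO, 139.8 and 63.0 CPM in HE and 125 and 162 CPM in labelled WT. HO replicate 2 lay within the labelled WT range, and the change of 0.45 ± 0.53 was not called (edgeR adjusted p = 0.68). Ppox had 104 and 78.8 CPM in HO, 51.4 and 35.6 CPM in HE and 53.9 and 62.1 CPM in labelled WT. Its change of 0.66 ± 0.32 (edgeR adjusted p = 0.254) was the largest increase in value among the members and was not called. Cpox had 474 and 443 CPM in HO, 325 and 264 CPM in HE and 333 and 323 CPM in labelled WT, with both HO libraries highest.

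Alad had 94.7 and 71.5 CPM in null HO yolk sacs, 47.4 and 43.7 CPM in HE and 68.1 and 58.1 CPM in labelled WT. It was the one member called against HE, higher by 0.87 ± 0.19 on the log2 scale (edgeR adjusted p = 0.0174; 8.19% of all genes called). Urod, Uros and Fech had HO values of 113 and 81.0, of 67.7 and 53.1, and of 320.1 and 247 CPM, against labelled WT values of 69.9 and 78.2, of 44.1 and 47.2, and of 251 and 237 CPM. HO replicate 1 was the higher for these and for every other member. HE against labelled WT gave 0 of 9 (0% of all genes called, 1 member at an unadjusted p under 0.05, 0 in DESeq2).

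The iron carriers lay on opposite sides of the libraries labelled WT in null HO yolk sacs, and neither was called. Of all genes tested, 27% had both HO libraries below both labelled WT libraries and 29.7% had both above. Tfrc, the plasma membrane receptor, had 344 and 330.2 CPM in HO, 622 and 338 CPM in HE and 496 and 603 CPM in labelled WT. HO lay below labelled WT in both libraries, one HE library was close to HO, and the change of −0.70 ± 0.43 was not called (edgeR adjusted p = 0.38). Slc25a37, the mitochondrial carrier, had 1044 and 819.7 CPM in HO, 583 and 377 CPM in HE and 573 and 693 CPM in labelled WT. HO was above both other groups, with a change of 0.56 ± 0.42 that was not called (edgeR adjusted p = 0.477).

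**Figure D4:**
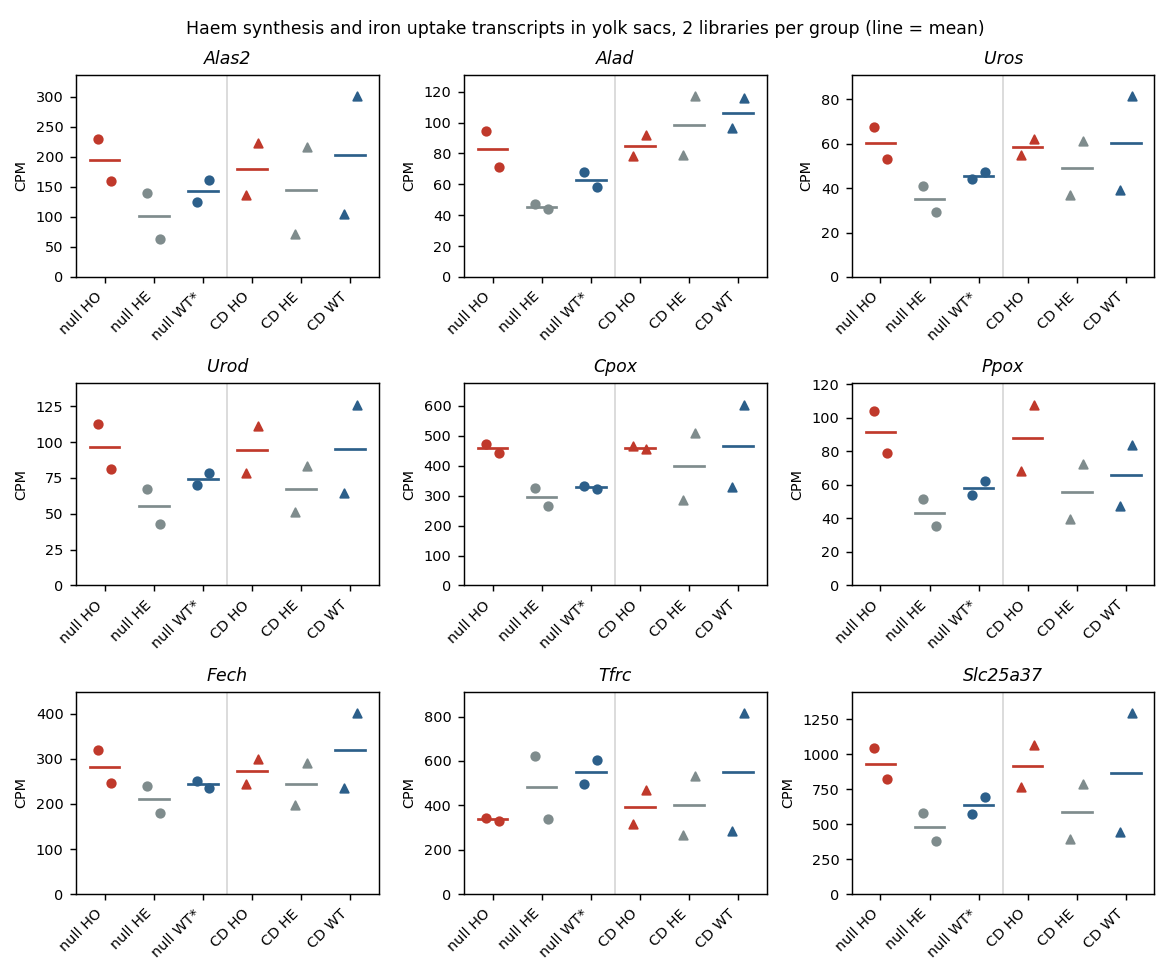
CPM of each member in the 12 yolk sac libraries, by line and genotype, with points for libraries and lines for means of 2; the asterisk marks null libraries labelled WT whose Setd2 level goes against the label. CD WT spans 282 to 815 CPM for Tfrc and 445 to 1293 CPM for Slc25a37, and in the null line HO lies above labelled WT for 6 members (29.7% of all genes tested) and below it for Tfrc (27%), none of them called.

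In CD yolk sacs the 2 WT libraries differed widely. Tfrc had 315 and 470.03 CPM in CD HO, 266 and 534 CPM in HE and 282 and 815 CPM in WT, and Slc25a37 had 765 and 1063 CPM in HO, 393 and 785 CPM in HE and 445 and 1293 CPM in WT. WT replicate 2 was the highest of the line for both genes, and HO lay inside the WT range. Alas2 showed the same arrangement, with 136 and 223 CPM in HO, 72.0 and 216 CPM in HE and 105 and 301 CPM in WT. The exception was Alad, with 78.1 and 92.1 CPM in HO, 79.3 and 117 CPM in HE and 96.3 and 116 CPM in WT, where both HO libraries lay below both WT libraries. So 1 of 9 members was below WT without overlap, as were 23.9% of all genes tested, and 8 of 9 overlapped. HO against HE gave 0 of 9 (3.86% of all genes called), and HE against WT gave 0 of 9 (0% of all genes called, 0 in DESeq2), each with 0 members at an unadjusted p under 0.05 in edgeR.

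Taken as the ratio of Tfrc to Slc25a37 CPM within a library, a measure chosen after the values were seen and so given with no test, the HO yolk sacs stood apart from the rest. The ratio was 0.329 and 0.403 in null HO, 1.07 and 0.897 in null HE and 0.865 and 0.869 in the null libraries labelled WT. It was 0.413 and 0.442 in CD HO, 0.678 and 0.680 in CD HE and 0.634 and 0.630 in CD WT. The 4 HO yolk sacs of both lines lay at 0.329 to 0.442 and the other 8 at 0.630 to 1.07, without overlap. How many other gene pairs part the libraries in this way was not counted. In the CD line Tfrc and Slc25a37 each overlapped between HO and WT, and HO and sex cannot be told apart there. In embryos the ratio was higher, at 1.91 to 3.55 in the 4 HO libraries and 1.59 to 2.27 in the other 8, with overlap. One HO library of each line lay above every HE and WT embryo, and the other lay below both WT libraries of its line.

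**Figure D5:**
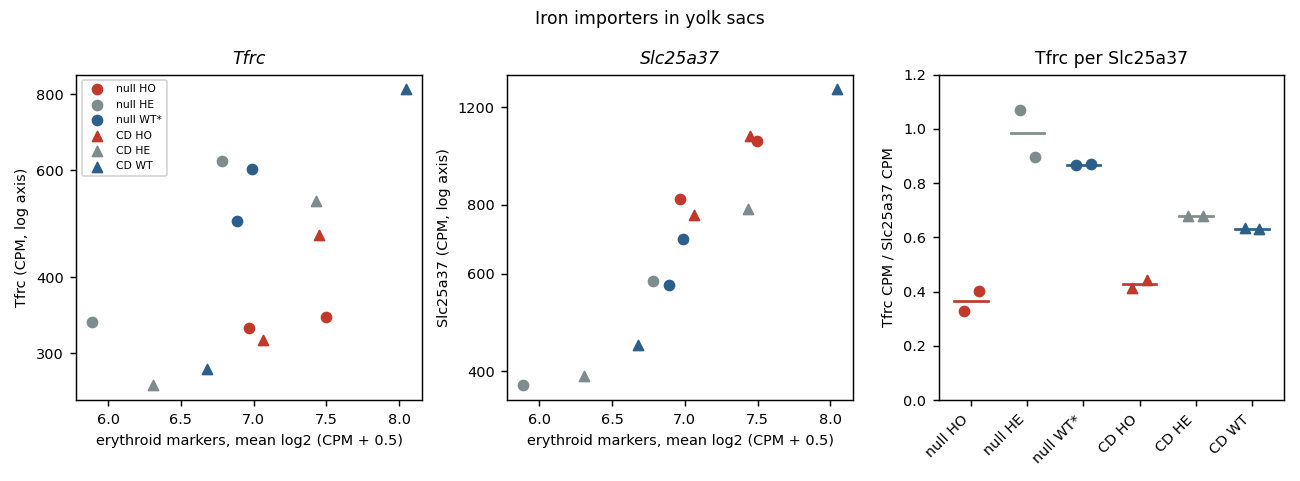
Tfrc (left) and Slc25a37 (middle) in the 12 yolk sac libraries (CPM, log axes) against the mean log2(CPM + 0.5) of the 19 erythroid markers, and the ratio of Tfrc to Slc25a37 CPM by group (right, lines for means of 2); the asterisk marks null libraries labelled WT whose Setd2 level goes against the label. The ratio is 0.329 to 0.442 in the 4 HO libraries and 0.630 to 1.07 in the other 8.

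Markers of other cell types were measured in the same yolk sacs. Erythroid markers summed to 14167 to 21593 CPM in null HO, 6034 to 13484 CPM in null HE and 13411 to 14916 CPM in the null libraries labelled WT. In the CD line the sums were 13051 to 18339 CPM in HO, 7826 to 17993 CPM in HE and 9621 to 29664 CPM in WT. None of the 19 was called in HO of either line. Visceral endoderm markers, from the absorptive outer layer of the yolk sac, summed to 32852 to 35687 CPM in null HO, 44668 to 49907 CPM in null HE and 43237 to 46468 CPM in the null libraries labelled WT. In CD they summed to 30834 to 39472 CPM in HO, 38211 to 45174 CPM in HE and 42331 to 46270 CPM in WT. Of 12 such markers 5 fell in null HO against the libraries labelled WT, where 3.97% of all genes tested were called lower. In CD HO 3 fell, where 1.89% of all genes were called lower, and Cubn was among them in both lines. Endothelial markers summed to 492 to 626 CPM in null HO, 578 to 785 CPM in null HE and 632 to 774 CPM in the null libraries labelled WT, with HO below labelled WT. In CD they summed to 557 to 589 CPM in HO, 657 to 725 CPM in HE and 539 to 679.6 CPM in WT, with overlap between HO and WT, and none of the 10 was called in HO of either line. Leukocyte markers summed to 21.6 to 47.1 CPM over all yolk sacs. Tfrc RNA is made by many dividing cell types, and the part of each in its level was not tested.

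The erythroid marker term, chosen after seeing the data, was also put in the yolk sac fit. In null HO yolk sacs against the libraries labelled WT, 1 of 9 members was then called (7.09% of all genes called, 4.29% lower). That member was Tfrc, lower by −0.97 ± 0.15 on the log2 scale (edgeR adjusted p = 0.00306). Ppox at 0.44 (edgeR adjusted p = 0.0639) and Slc25a37 at 0.27 (edgeR adjusted p = 0.213) were not called. In CD HO yolk sacs the term gave 1 of 9 (5.36% of all genes called, 2.51% higher), Ppox, higher by 0.53 ± 0.13 (edgeR adjusted p = 0.0364), and Tfrc at −0.21 ± 0.14 was not called (edgeR adjusted p = 0.41). The difference between lines for Tfrc, 0.76 ± 0.20, did not pass (edgeR adjusted p = 1).

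The lines did not differ in yolk sacs by any member in the test without the term: 0 of 9 for CD minus null (0.0282% of all genes, 1 at an unadjusted p under 0.05, 0 in DESeq2). CD WT against null labelled WT gave 0 of 9 in edgeR (0.0451% of all genes, 1 at an unadjusted p under 0.05), and DESeq2 called 1, Alad. The homozygous effect was also compared between the tissues. For the null line its yolk sac side is set against the libraries labelled WT, whose Setd2 level goes against that label. In the null line 0 of 9 members passed in edgeR (10.1% of all genes called, 6 members at an unadjusted p under 0.05), and DESeq2 called 2, Alad and Ppox. The differences, yolk sac minus embryo, were 2.16 ± 0.90 for Alas2 (edgeR adjusted p = 0.143), 1.21 ± 0.38 for Ppox (edgeR adjusted p = 0.0502), 0.76 ± 0.27 for Alad (edgeR adjusted p = 0.0847) and −0.25 ± 0.49 for Tfrc (edgeR adjusted p = 0.822). In the CD line it was 0 of 9 (2.94% of all genes, 0 at an unadjusted p under 0.05, 0 in DESeq2).

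The genes around the pathway were counted from lists, whose shares called are to be read against those of all genes (32.7% in null HO embryos, 16.1% in CD HO embryos, 6.27% in null HO yolk sacs and 3.15% in CD HO yolk sacs). In null HO embryos Alas1 was at −0.10 on the log2 scale (edgeR adjusted p = 0.432). Of 13 tested genes for haem transport and enzyme stability 2 fell, Abcb10, a mitochondrial inner membrane transporter (−0.85, edgeR adjusted p = 0.00562), and Tmem14c, needed for protoporphyrinogen import (−0.39, edgeR adjusted p = 0.0366). These 3 of 13, with Flvcr2, were no larger a share than among all genes. Flvcr2 rose by 0.92 (edgeR adjusted p = 0.0132), at 5.30 ± 1.27 CPM in HO and 2.81 ± 0.212 CPM in WT (SD, n = 2 each). In CD HO embryos 2 of 13 fell, Abcb10 (−0.63, edgeR adjusted p = 0.0441) and the haem exporter Flvcr1 (−0.31, edgeR adjusted p = 0.0154). In yolk sacs 0 of 14 were called in HO of either line.

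Among 6 genes of haem breakdown and sensing, Hmox1, the inducible haem oxygenase, rose in HO embryos of both lines. It had 23.5 ± 1.67 CPM in null HO and 13.2 ± 1.01 CPM in null WT (0.83 ± 0.12 on the log2 scale, edgeR adjusted p = 0.000269). In the CD line it had 25.2 ± 1.95 CPM in HO and 17.1 ± 1.98 CPM in WT (0.56, edgeR adjusted p = 0.00676). Eif2ak1, the kinase that halts translation when haem is short, fell in both (−0.33, edgeR adjusted p = 0.00702 in null; −0.25, edgeR adjusted p = 0.0475 in CD). Hmox2, the constitutive oxygenase, also fell in null HO (−0.27, edgeR adjusted p = 0.0388). None of the 6 was called in yolk sacs.

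Of 19 tested genes for iron uptake, storage and export, 5 rose and 5 fell in null HO embryos, and 2 rose and 5 fell in CD HO embryos. Steap3, the ferrireductase that works beside the transferrin receptor in red cell precursors, fell by 1.323 in null HO (edgeR adjusted p = 0.00415). The ferroxidase Heph fell in both lines, at 37.96 ± 0.297 CPM in null HO and 56.0 ± 2.83 CPM in null WT, and at 35.2 ± 1.81 CPM in CD HO and 55.8 ± 2.82 CPM in CD WT. Fth1, whose element is printed above, had 324 ± 21.5 CPM in null HO embryos and 231 ± 2.31 CPM in null WT (edgeR adjusted p = 0.00206), and the light chain Ftl1 rose by 0.35 in CD HO (edgeR adjusted p = 0.00999). Trf, which encodes transferrin itself, fell by 1.97 in null HO and by 4.33 in CD HO. Trf is also made by visceral endoderm. The mean log2 level of 11 tested visceral endoderm markers was 1.98 to 2.28 in CD HO embryos, 2.96 to 3.07 in CD HE and 3.57 to 5.73 in CD WT. These ranges did not overlap, and WT replicate 2 was highest. In CD HO 8 of 11 fell, against 9.14% of all genes tested. In the null line the mean log2 level was 2.48 to 3.51 in HO, 2.26 to 2.63 in HE and 2.54 to 2.69 in WT, with overlap. There 2 of 11 rose in HO, against 16.2% of all genes tested. Summed CPM, used for the lists above, gave another order. It was 464 to 493 in CD HO, 322 to 339 in CD HE and 381 to 1236 in CD WT. In the null line it was 545 to 572 in HO, 249 to 298 in HE and 283 to 292 in WT. The part of these cells in the Trf values was not tested.

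In null HO yolk sacs 1 of the 19 rose and 2 fell. Fth1 had 1313 ± 97.6 CPM in HO, 868 ± 72.3 CPM in HE and 889 ± 81.0 CPM in labelled WT, a rise of 0.56 ± 0.13 on the log2 scale (edgeR adjusted p = 0.0294). The metal importer Slc39a8 fell by 0.83 (edgeR adjusted p = 0.00826) and Heph by 0.73 (edgeR adjusted p = 0.0366). In CD HO yolk sacs Slc39a8 alone of the 19 was called, lower by −0.91 (edgeR adjusted p = 0.0092), and Fth1 was at 0.20 (edgeR adjusted p = 0.43). Of 15 iron–sulphur cluster genes 1 rose and 3 fell in null HO embryos, 1 rose in CD HO embryos and 0 were called in yolk sacs of either line. In the same order 32.7%, 16.1%, 6.27% (null) and 3.15% (CD) of all genes were called. Whether this short list differs from all genes was not tested.

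The genes whose levels followed Alas2 most closely over the 12 embryo libraries included Hba-a1 (r = 0.998), Ank1, Hba-a2 and Add2 (r = 0.989), haemoglobin and red cell membrane skeleton genes. Over the 12 yolk sac libraries they included the embryonic globins Hba-x (r = 0.983) and Hbb-bh1 (r = 0.975). These are Pearson correlations of log2 CPM, given as a description, and the libraries share depth and tissue makeup. Among 14876 genes in embryos Slc25a37 ranked 16 by this measure, Alad 29, Ppox 30, Urod 91, Uros 147 and Fech 177, while Tfrc ranked 1575 and Cpox 2751. Among 13927 genes in yolk sacs Urod ranked 7, Slc25a37 12, Uros 13, Fech 17, Ppox 57 and Cpox 79, and Tfrc ranked 950 and Alad 1003. Tfrc was the one member ranked low within the set in both tissues, with r = 0.771 to Alas2 in embryos and 0.624 in yolk sacs.

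The genes nearest to Tfrc were others. In embryos they were Zfp454 (r = 0.959), Cep76, Ccnb1, Nudt21 and Zfp397 (r = 0.941), which include genes of the cell division cycle and RNA processing. In yolk sacs they were Slc38a2 (r = 0.911), Trib3, Pip5k1b, Slc7a3 and Mst1 (r = 0.885), which include amino acid transporters. None of the haemoglobin genes nearest to Alas2 was among the 5 nearest to Tfrc in either tissue.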

How the data were processed

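Raw read counts per gene and FPKM values were deposited by the authors in 1 table per tissue, 12 libraries each. The submitters' processing notes name fastp 0.22.0, HISAT2 2.2.1, featureCounts 2.0.1, DESeq2 1.32.0 and mm10. For annotation release, use of strand and reads with several matches, the sources used here give nothing. The FPKM values, which the authors derived from these counts, served for levels between genes alone (0 differed from count over length and total by more than 0.001 of the value).

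Counts were tested in edgeR 4.0.16 (R 4.3.3) by the quasi-likelihood method with TMM scaling. The filter had a minimum count of 10 and minimum total of 15. Each tissue was fitted with its 12 libraries in 6 groups (19215 genes in embryos, 17755 in yolk sacs), and tissues were compared in a joint fit of 24 libraries (20543 genes). Calls are at an adjusted p of 0.05. Standard errors were taken from the change and its F statistic. Replicates had a chi-square of 2.95 to 32.3 per degree of freedom and none was a duplicate. Alternatives included other scalings, no filter, DESeq2 1.42.0, a replicate block, a sex term (Ddx3y above 10 CPM), HE as control, leaving out libraries, and, chosen after seeing the data, a term for the mean log2(CPM + 0.5) of 19 erythroid markers and 1 pair of libraries left out together per tissue. The fit was tested on simulated data.

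Members and lists were chosen with earlier results of these data known. Lists were written from general knowledge. Named genes are the members, up to 4 called genes per list by smallest p, and the 5 nearest to Alas2 and Tfrc by correlation among genes of mean CPM of at least 1. Promoter windows are from RefSeq, transcripts and positions from GENCODE M21 (55154 of 55421 identifiers matched). No Fech sequence is given. Some genes that this rule names are not reported here.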

Additional observations from a re-analysis of the deposited data

How the results depend on the processing

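With 2 libraries per group the precision is set by few samples, and yolk sacs vary more than embryos. In null HO embryos, 3 to 8 members were called when 1 library was left out. The count was 3 without WT replicate 2 (Urod, Ppox, Tfrc), 4 without HO replicate 2 or without WT replicate 1, and 8 without HO replicate 1. Urod, Ppox and Tfrc were called in 13 of 14 alternatives, the exception being the erythroid term. DESeq2 called 6 but not Alas2 or Slc25a37. With the erythroid term 1 was called, and Alas2 (0.17), Cpox (0.58) and Slc25a37 (0.11) turned positive; the term's own construction uses red cell genes. Leaving out 1 library moved the calls to 0 to 3 for CD minus null in embryos, 0 to 1 for CD WT against null WT in embryos, 0 to 1 for CD HO in embryos and 0 to 2 for the tissue difference in the null line. It kept 9 to 9 for yolk sac against embryo and 0 to 0 for all other comparisons. In embryos the sex term was set by null HO and CD HE, the groups that held both sexes. For CD HO against WT it therefore rests on libraries outside that comparison and cannot part HO from sex. The call in CD HO embryos (1) was 0 with RLE size factors, 0 with library totals alone and 0 with the replicate block. It was also 0 with the sex term, 0 with the 2 groups alone and 0 with the erythroid term. It was 4 with no filter, 5 against HE and 5 without null HO replicate 2 and CD WT replicate 2 together. The replicate numbers do not pair the samples (correlations of −0.165 to 0.105 in embryos and −0.167 to 0.259 in yolk sacs), and the block gave 6 calls in null HO embryos. No filter gave, in embryos, 3 for CD HE, 2 for CD minus null and 3 for CD WT against null WT. In yolk sacs it gave 5 for null HO, 1 for null HE, 2 for CD HO, 4 for CD HE, 1 for CD minus null and 4 for CD WT against null labelled WT, and for the tissue difference 8 in the null line and 1 in CD. DESeq2 gave 1 for CD WT against null WT in embryos, 1 in yolk sacs and 2 for the null tissue difference, where library totals alone gave 1. Null HO yolk sacs had 4 calls with the 2 groups alone, 1 against HE, 1 with the erythroid term and 1 without CD WT replicate 2 and CD HE replicate 2 together, and CD HO yolk sacs had 1 with the erythroid term. The causes of these moves were not tested. The share of all genes called is not given for most of these fits, so their counts alone are no result about the members.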
